A study of Rattus norvegicus with 2 samples.

Results

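The genes described here are 42 interferon-stimulated antiviral genes, measured in rat skeletal muscle 24 hours after repeated pricking with a fine needle. They were chosen as a named gene set, with earlier results of these data known, and matched by gene symbol to the probe sets of the array that list a single gene. Of the 42 genes, 36 had such a probe set, 48 probe sets in all, and 33 were measured, among 9956 measured genes of the whole array. The study hybridised adductor muscle RNA to 2 Affymetrix arrays. The rats were Lewis males, from an inbred strain, with a body weight of 275 g. In the stimulated group, a 10 mm by 10 mm area over the left adductor had received 100 pricks with a stainless steel needle of 0.14 mm diameter, and in the control group the right limb was left intact. Each group was 1 array. The labels do not say how many animals were used, whether RNA was pooled or whether both samples came from the same animals. With 1 array per group there is no replicate check, so no test, p-value or standard error is given, and each difference is a difference between these arrays.

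Interferons are secreted proteins that cells release when they sense foreign or misplaced nucleic acid. Type I interferons bind the receptor made of Ifnar1 and Ifnar2, whose kinases Jak1 and Tyk2 activate Stat2, which works with Irf9 in the complex ISGF3 at the interferon-stimulated response element (ISRE) in promoters, whereas interferon gamma acts at the gamma-activated site (GAS). The induced genes sense viral RNA, block viral entry, translation and replication, and include Irf7, a factor that raises interferon production further, and Usp18, a brake on the receptor.

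Signals were MAS5 intensities, on a linear scale in arbitrary units that cannot be compared between genes. The median of all signals, 19.8, served as a floor, and a gene counted as measured where at least 1 array reached it. Lower signals were raised to the floor before log2 ratios, stimulated over control, were computed, and a fold with 1 array below the floor is a lower bound, written as "at least". Genes were called lower or higher at a 2-fold difference. As a yardstick of measurement error, different probe sets for the same gene differed in log2 ratio with a standard deviation of 0.31 over 2174 genes. This covers how probe sets differ on these arrays, not how animals or limbs differ. On the stimulated array 48.9% of probe sets reached the floor, and on the control array 51.1%. The 18 manufacturer's spike-in probe sets were all lower on the stimulated array, by a median log2 ratio of -0.38, so scaling the arrays to them moves the median ratio of all genes from 0.019 to 0.39. Unless said otherwise, lower and higher are counted against a log2 ratio of 0. The median gene lies close to 0 with the authors' scaling, but at 0.39 with scaling to the spike-ins. A ratio above 0 under the spike-in scaling can therefore still lie below the median gene. All 10 markers of muscle fibres, the labelled tissue, were measured, and of these Myh7 alone was below the floor on an array, the control one. Of the 10, 7 were below 0 with a median of -0.15, and Myh7, the slow myosin, was at least 3.04-fold higher in the stimulated limb.

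The antiviral genes were mostly lower in the stimulated limb. Of the 33 measured genes, 30 had a log2 ratio below 0 (90.9%) and 3 above, whereas 4750 of all 9956 genes were below 0 (47.7%). At least 2-fold lower were 12 of the 33 (36.4%), against 142 of 9956 genes (1.43%). None was 2-fold higher, where the share of all genes was also 1.43%. The 12 were Isg15, Mx1, Mx2, Ddx60, Rsad2, Irf7, Usp18, Oas1a, Dtx3l, Ifit3, Lgals3bp and Ifitm3, and they made up 8.45% of the 142 genes that were lower by that much. The median log2 ratio of the antiviral genes was -0.79, with quartiles of -1.23 and -0.55 and a range from -2.62 to 0.31. Their median signal was 57.8 on the stimulated array and 95.5 on the control array, where the medians of all measured genes were 89.8 and 88.4. Ordered from the lowest ratio among the 9956 genes, Isg15 stood in place 3 and Mx1 in place 4, and 10 antiviral genes were among the lowest 100. Ddx60 and Dhx58 reached the floor on the control array alone, so their ratios could only come out below 0. Among genes at or above the floor on both arrays, 28 of 31 antiviral genes were below 0, against 4174 of 8995 genes. At least 2-fold lower were 11 of the 31 and 0 were higher, against 113 and 118 of the 8995.

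The count depended on the scaling. With the arrays scaled to the spike-ins, 6 of the 33 genes were at least 2-fold lower, against 0.441% of all genes. With that scaling 26 were below 0, where the share of all genes was not counted, and the median was -0.41. Against the median gene under that scaling it was -0.79, and -0.81 with the authors' scaling. Among genes with a mean log2 signal at least that of 2 floors, 8 of 26 antiviral genes were 2-fold lower and 0 higher, with a median of -0.68, against 1.22% lower and 1.31% higher of 7553 genes. Over single probe sets in place of genes, 13 of 44 were 2-fold lower and 0 higher, against 1.81% and 1.31% of 13384. A log2 ratio further from 0 than 1 standard deviation of a single probe set was seen for 27 of the 33 genes. All 27 were lower in the stimulated limb, and 6 genes lay within that limit. The share of all genes past it was not counted, so how ordinary this is cannot be read here. In whole muscle, fewer cells of a type and less RNA per cell cannot be told apart.

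**Figure D1:**
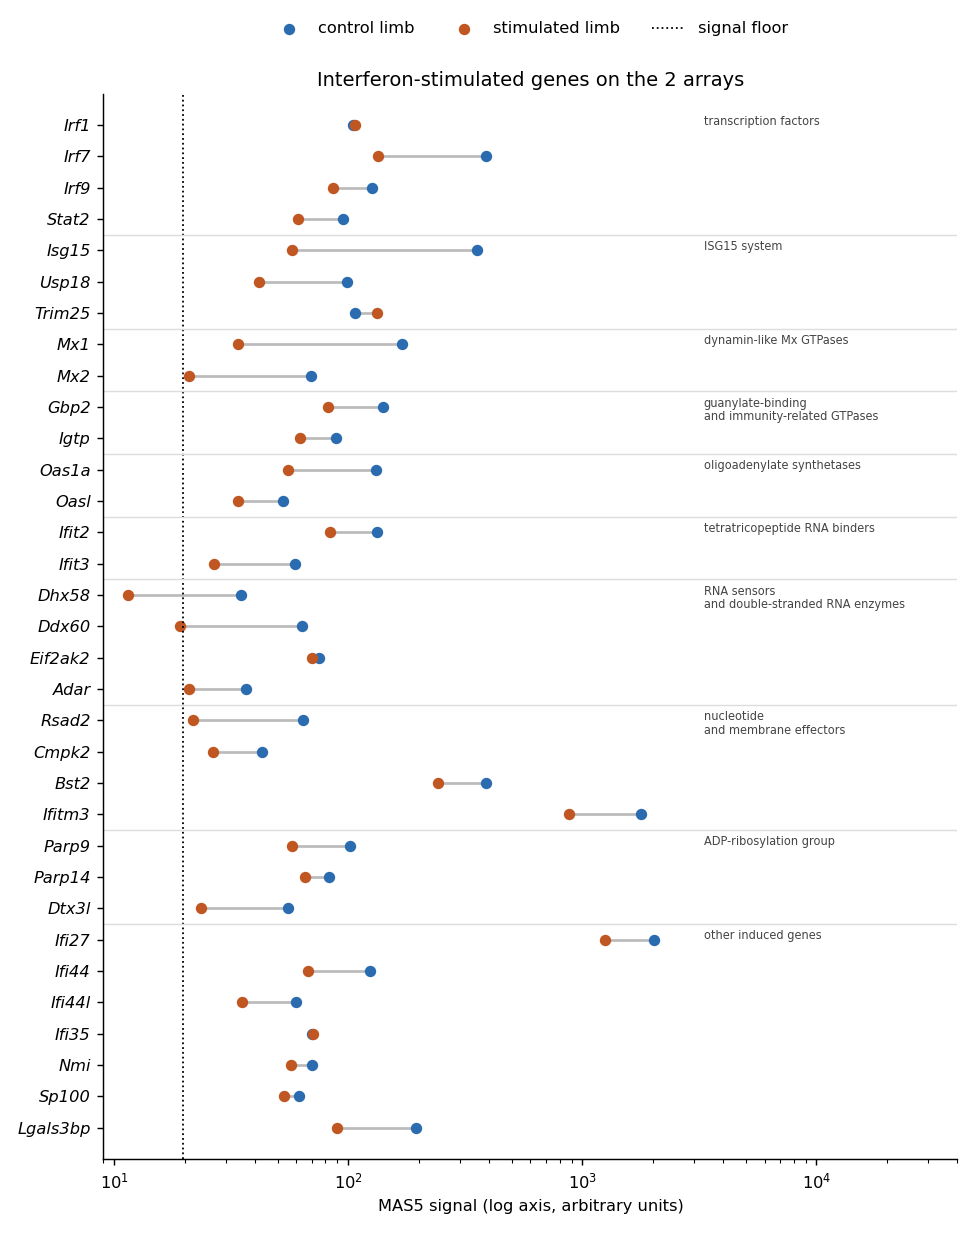
MAS5 signal (log axis, arbitrary units) of the 33 measured interferon-stimulated genes on the control array (blue) and the stimulated array (orange), grouped by role, with the floor of 19.8 as a dotted line. The blue point lies to the right in 30 genes, and the gap is widest for Isg15, at 355 and 57.8.

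**Figure D2:**
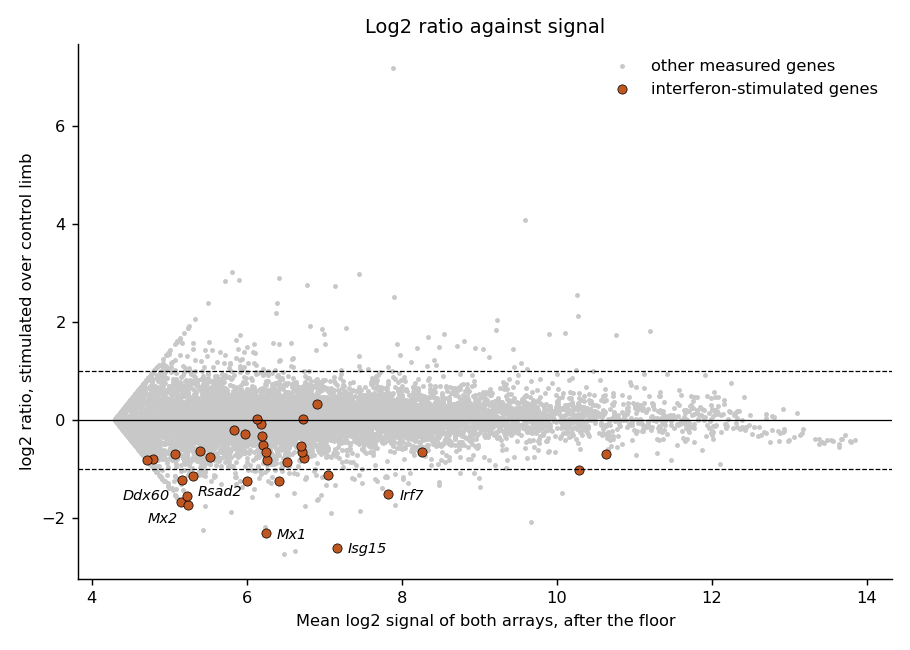
Log2 ratio of stimulated over control (vertical axis) against the mean log2 signal of both arrays after the floor (horizontal axis) for the 33 antiviral genes (orange) and all other measured genes (grey), with dashed lines at a 2-fold difference. The antiviral genes lie mostly below the line at 0 over the range of signals they cover, which does not reach the brightest genes. Isg15 and Mx1 lie at the lower edge of all genes.

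The promoters of these genes are shown because they hold the sequence through which interferon signalling is known to act. The RefSeq promoter windows of the rat reference genome (assembly GRCr8, of the Brown Norway strain, not Lewis) run from 250 bases before to 50 bases after each start site and were available here for 34 of the 42 genes. Sequences are given 5′ to 3′ on the strand of the gene. The ISRE core searched was GAAANNGAAA on either strand, and capitals mark its matches, which read TTTCNNTTTC where the match lies on the other strand. Ddx60 is printed in full for the 250 bases before its start site (chr16:33208840-33209089, minus strand), since its window held 2 separate copies of the same 10 bases, starting 73 and 39 bases before the start.
Ddx60: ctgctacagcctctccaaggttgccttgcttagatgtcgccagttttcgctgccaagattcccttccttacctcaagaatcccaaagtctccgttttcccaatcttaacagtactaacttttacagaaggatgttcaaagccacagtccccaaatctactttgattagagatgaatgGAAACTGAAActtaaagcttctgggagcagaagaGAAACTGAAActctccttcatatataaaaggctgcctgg

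Of the other genes at least 2-fold lower, 6 with a match before the start site are shown with 15 bases on each side. They are Irf7 (chr1:205800068-205800107, minus strand, match starting 69 bases before the start), Rsad2 (chr6:48788243-48788282, minus, 147 bases), Oas1a (chr12:41330410-41330455, plus, 41 bases, where 2 matches overlap), Ifit3 (chr1:241527267-241527306, plus, 44 bases), Lgals3bp (chr10:104127874-104127913, minus, 50 bases) and Ifitm3 (chr1:205541778-205541817, minus, 44 bases).
Irf7: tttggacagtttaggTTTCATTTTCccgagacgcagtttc
Rsad2: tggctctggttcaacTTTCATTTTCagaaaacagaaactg
Oas1a: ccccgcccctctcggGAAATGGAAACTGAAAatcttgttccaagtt
Ifit3: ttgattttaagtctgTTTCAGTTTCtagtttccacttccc
Lgals3bp: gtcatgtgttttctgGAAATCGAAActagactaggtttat
Ifitm3: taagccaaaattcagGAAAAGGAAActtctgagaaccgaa

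For contrast, a pair of genes whose signals differed little between the limbs is shown. Eif2ak2 (chr6:21941123-21941162, plus strand) held an ISRE core starting 16 bases before its start site. Irf1 (chr10:38417778-38417816, plus strand) held no ISRE core in its window and 1 gamma-activated site, searched as TTCNNNGAA, starting 142 bases before the start and marked in capitals.
Eif2ak2: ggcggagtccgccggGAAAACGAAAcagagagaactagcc
Irf1: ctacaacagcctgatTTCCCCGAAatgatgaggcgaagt

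An ISRE core was found in 22 of the 34 windows of antiviral genes (64.7%), against 1131 of 27457 windows of all genes (4.12%). The GAS letters were found in 10 of the 34 (29.4%) against 2577 of all (9.39%), and 7 antiviral genes held both. Of 29 ISRE matches, 27 lay before the start site, and the median match began 59 bases before it. Among measured antiviral genes with a window, 8 of the 9 that were at least 2-fold lower held an ISRE core (88.9%), with Mx1 the exception. Of the 18 others, 9 did (50.0%). Isg15, Mx2 and Usp18, also at least 2-fold lower, had no window and are missing from these shares. The median log2 ratio was -0.88 for the 17 measured genes with an ISRE core and -0.60 for the 10 without. The lowest ratio with a core was -1.69, and Mx1, without one, was lower at -2.32. Among all other genes, the medians with and without the core lay close to each other. Of 247 other measured genes with an ISRE core, 6 were at least 2-fold lower (2.43%) and the median was 0.035, and of 8075 without one, 95 were (1.18%) and the median was 0.027. A match describes the letters in the window alone, and whether any factor bound there was not measured.

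**Figure D3:**
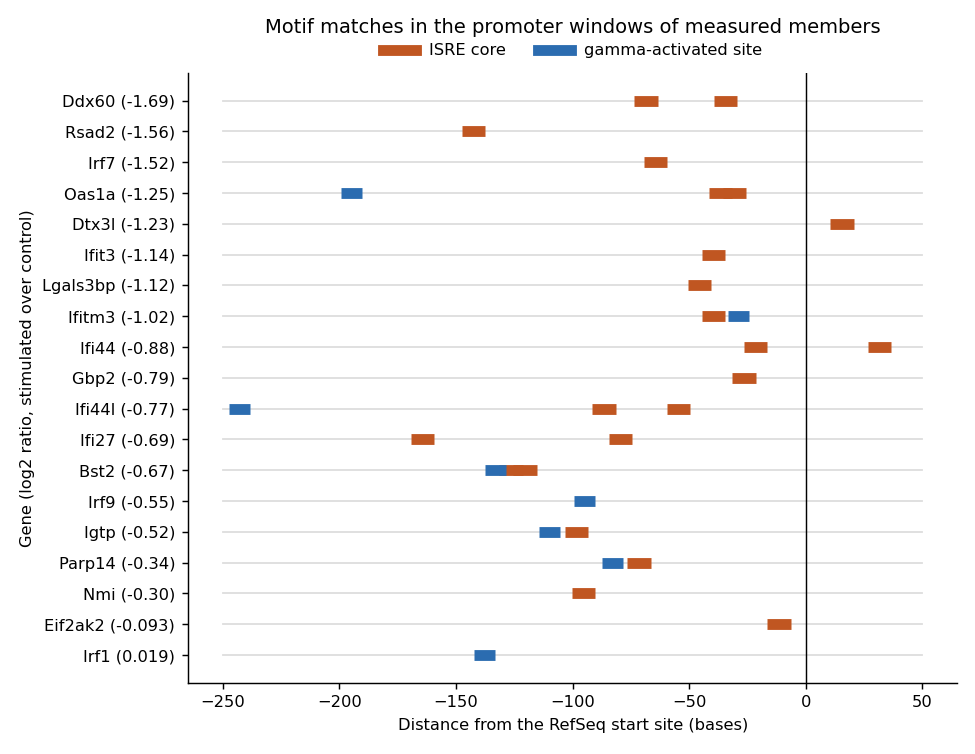
Positions of ISRE core matches (orange) and gamma-activated site matches (blue) along the promoter windows of the 19 measured antiviral genes that held either, in bases from the RefSeq start site (vertical line), with genes ordered from the lowest log2 ratio. Most ISRE matches lie within the last 200 bases before the start site, those of Dtx3l and 1 of Ifi44 lie after it, and genes with small ratios such as Eif2ak2 hold a match as well.

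Among the transcription factors, Irf7 differed most. Irf7, which drives type I interferon genes and is itself induced by interferon, read 134 in the stimulated and 386 in the control limb (probe set 1383564_at), a log2 ratio of -1.52 or 2.87-fold lower. Irf9, the DNA-binding part of ISGF3, read 85.9 and 126 (log2 ratio -0.55) and, on a second probe set, 43.7 and 67.9 (-0.64). Both were lower in the stimulated limb by less than 2-fold. Stat2, its partner in ISGF3, read 60.8 in the stimulated and 95.5 in the control limb (-0.65), but a second, dimmer probe set read 40.1 and 35.4 (0.18), so its probe sets do not give 1 direction. Irf1, a factor induced through the gamma-activated site, read 107 and 105 (0.019), a difference far inside the spread between probe sets.

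The ISG15 system attaches a ubiquitin-like protein to other proteins. Isg15, that modifier itself, had the largest difference of all the antiviral genes, with a signal of 57.8 in the stimulated and 355 in the control limb (probe set 1382314_at), a log2 ratio of -2.62 or 6.14-fold lower. Usp18, the protease that removes Isg15 and restrains the interferon receptor, read 41.6 and 98.6 (-1.25, 2.37-fold lower). Trim25, a ubiquitin ligase that activates RIG-I, read 133 and 107 (0.31, 1.24-fold higher). This was the highest ratio among the antiviral genes and no more than 1 standard deviation of a single probe set. Herc6, the ligase for Isg15 in rodents, was below the floor on both arrays, at 14.6 and 16.8. The modifier and its protease were thus lower together, while Trim25 was not.

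Both Mx genes were lower in the stimulated limb by more than 2-fold. They encode dynamin-like GTPases that trap viral nucleoproteins. Mx1 read 34.0 in the stimulated and 169.6 in the control limb (probe set 1371015_at), a log2 ratio of -2.32 or 4.99-fold lower. Mx2 read 20.8 and 69.6 (-1.74, 3.35-fold lower). The stimulated signal of Mx2 lay just above the floor, and its second probe set was below the floor on both arrays, at 4.85 and 7.92. The related large GTPases differed less. Gbp2, a guanylate-binding protein that attacks vacuoles of intracellular pathogens, read 81.7 and 141 (-0.79, 1.73-fold lower). Igtp, an immunity-related GTPase with a like role, read 62.2 and 89.0 (-0.52) on its brighter probe set and 23.6 and 22.3 (0.082) on the dimmer one. Gbp5 and Ifi47 of this group had no single-gene probe set.

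The oligoadenylate synthetases make a short RNA-like messenger that activates RNase L, which degrades viral and cellular RNA. Oas1a read 55.4 in the stimulated and 131 in the control limb (log2 ratio -1.25, 2.37-fold lower). Oasl, a relative that strengthens RIG-I signalling, read 33.7 and 52.7 (-0.65, 1.56-fold lower). Both were lower in the stimulated limb, Oas1a alone past 2-fold. Oas1b was below the floor on both arrays, at 0.853 and 3.01, and Oas1k and Oasl2 had no single-gene probe set. These genes are close copies of each other, and how far the probes cross-hybridise is not known here.

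The Ifit family includes proteins that bind foreign RNA and hold it back from translation. Ifit3 read 26.7 and 59.0 (log2 ratio -1.14, 2.21-fold lower). Its neighbour in the genome, Ifit2, read 83.6 and 133 on the brighter probe set (-0.67, 1.59-fold lower) and 43.4 and 105 on the other (-1.27, 2.41-fold lower), so whether Ifit2 passes 2-fold depends on the probe set. All 3 probe sets were lower in the stimulated limb.

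The sensors of viral RNA and the enzymes that act on double-stranded RNA were all below 0 on the probe sets used, by differing amounts. Ddx60, a helicase that aids RIG-I, read 19.1 in the stimulated limb, below the floor, and 63.6 in the control limb, which makes it at least 3.22-fold lower (log2 ratio -1.69). Dhx58, which encodes the RIG-I relative LGP2, was also below the floor in the stimulated limb alone, at 11.5 against 35.0, at least 1.77-fold lower. With a lower floor, at the 25th percentile of signals, the log2 ratios of Dhx58 and Ddx60 were -1.60 and -1.74, so the bounds do not rank them. Its other probe sets read 9.49 and 32.2, and 2.75 and 24.6, again with only the control limb at or above the floor. Eif2ak2, the kinase PKR that halts translation, read 70.3 and 75 (-0.093). Adar, which edits adenosine in double-stranded RNA, read 20.8 and 36.6 (-0.81) on the probe set used, but 24.5 and 30.1 (-0.30) and 27.5 and 19.3 (0.48) on its others. All 3 Adar probe sets were dim and they did not give 1 direction. Ifih1, the RNA sensor MDA5, was below the floor on both arrays, at 14.6 and 17.8.

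Effectors that act on nucleotides and membranes were all lower, 2 of them by at least 2-fold. Rsad2, or viperin, which makes a chain-terminating nucleotide, read 21.8 and 64.2 (log2 ratio -1.56, 2.94-fold lower). Cmpk2, the nucleotide kinase encoded next to it, read 26.4 and 42.8 (-0.70), and 24.0 and 41.2 (-0.78) on a second probe set. Both of these neighbouring genes were lower in the stimulated limb on every probe set. Ifitm3, a membrane protein that blocks entry of enveloped viruses, was bright on both arrays, at 876 and 1775 (-1.02, 2.03-fold lower), and was the gene just inside the 2-fold limit. Bst2, or tetherin, which holds budding virus at the cell surface, read 243 and 386 (-0.67, 1.59-fold lower). Samd9l had no single-gene probe set.

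Parp9 and Dtx3l form a complex that joins ADP-ribosylation to ubiquitin and supports interferon signalling, and their genes are neighbours. Dtx3l, the ubiquitin ligase of the pair, read 23.5 in the stimulated and 55.1 in the control limb (log2 ratio -1.23, 2.34-fold lower). Parp9 read 57.5 and 102 (-0.82, 1.77-fold lower). Parp14, an ADP-ribosyltransferase, read 65.4 and 83.1 (-0.34), and 20.1 and 30.3 (-0.59) on a dimmer probe set. All 3 were lower with the authors' scaling, Parp14 by little more than the spread between probe sets, and with scaling to the spike-ins the log2 ratio of Parp14 was 0.036.

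The remaining induced genes ranged from 2.18-fold lower to no measurable difference. Lgals3bp, a secreted galectin-binding glycoprotein, read 89.7 and 195 (log2 ratio -1.12). Ifi27, a mitochondrial and nuclear membrane protein, was the brightest of the antiviral probe sets, at 1249 and 2021 (-0.69, 1.62-fold lower). The neighbouring genes Ifi44 and Ifi44l, whose products limit viral replication, were lower by similar amounts, Ifi44 at 67.6 and 124 (-0.88) and Ifi44l at 35.3 and 60.1 (-0.77). Ifi44, 1.83-fold lower, was the gene just outside the 2-fold limit. Nmi, a protein that binds STAT factors, read 56.9 and 69.8 (-0.30), and 40.2 and 47.2 (-0.23) on a second probe set. Ifi35, its binding partner, read 70.9 and 69.9 (0.021). Sp100, a nuclear body protein, read 53.2 and 61.5 (-0.21). These last 3 lay within the spread between probe sets, and with scaling to the spike-ins the ratios of Nmi, Sp100 and Eif2ak2 changed sign, to 0.085, 0.17 and 0.29. Xaf1, a proapoptotic factor, had no single-gene probe set.

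Genes with several probe sets allow a check within the arrays. Of the 9 antiviral genes with 2 or more measured probe sets, 6 had all of them lower and 0 had all of them higher, where 944 of 2595 genes of the whole array had all of them lower (36.4%). All probe sets shared 1 direction in 66.7% of these genes, against 1432 of the 2595 (55.2%), which is not far from it. The 3 whose probe sets disagreed were Adar, Igtp and Stat2.

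The rest of the interferon pathway was examined with lists of genes outside the 42, apart from shared entries named below. The signal upstream could hardly be read. Of 14 genes for interferons and their receptors, 9 had a single-gene probe set and 4 of these were below the floor on both arrays, among them Ifnb1, interferon beta, at 0.573 and 1.30, and Ifng, interferon gamma, at 0.768 and 1.03. The receptor genes that were measured did not share the lower signals, with 0 of 5 past 2-fold and a median log2 ratio of 0.28. Ifnar1 read 60.8 and 50.0 (0.28), though its other probe sets ranged from -0.39 to 0.61, and Il10rb, a shared receptor chain, read 79.4 and 51.6 (0.62). Of 11 genes for kinases, STATs and IRFs outside the 42, 8 were measured, 4 below and 4 above 0, with 0 past 2-fold and a median of -0.0090. Irf8, a factor of myeloid cells, had the highest ratio of these, at 80.6 and 48.3 (0.74).

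Of 16 genes for nucleic acid sensing, 11 were measured, 6 below and 5 above 0, with a median of -0.036. At least 2-fold lower were 2 of them, both interferon-induced sensors. The gene for RIG-I, listed as Rig1 in RefSeq, read 60.9 in the stimulated and 126 in the control limb (log2 ratio -1.05, 2.06-fold lower). Zbp1, a sensor of left-handed nucleic acid, read 19.0 and 41.8 (at least 2.11-fold lower). The list called negative regulators here also held Uba7 and Isg20, neither of them an inhibitor of interferon signalling. Uba7, the enzyme that activates Isg15, was at least 1.65-fold higher, and Isg20, an exonuclease, at least 1.30-fold lower. Of the 10 measured genes of that list, 6 were below and 4 above 0, with a median of -0.29. Of these Socs3, an inhibitor of cytokine signalling, was 2.20-fold lower, at 28.1 and 61.9, and Ptpn6, a phosphatase of blood cells, had the highest ratio, at 75.3 and 41.7 (0.85).

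Of 26 measured interferon-induced genes outside the 42, 20 were below 0 and 6 above, 5 were at least 2-fold lower and 0 higher, and the median was -0.32. Slfn5, a nuclear repressor, read 57.9 and 164 (log2 ratio -1.50, 2.83-fold lower). Lgals9, a galectin, read 88.8 and 224 (2.52-fold lower), Rtp4, a chaperone for receptors, 83.5 and 189 (2.27-fold lower), Rnf213, a large ubiquitin ligase, 39.0 and 87.5 (2.24-fold lower, but 1.47-fold on a second probe set, at 39.7 and 58.4), and Helz2, a helicase, 29.1 and 60.1 (2.06-fold lower). Not every induced gene was lower. Ifitm1, from the same family as Ifitm3, read 642 in the stimulated and 372 in the control limb (0.79, 1.73-fold higher), and Apobec1, a cytidine deaminase, 194 and 121 (0.68).

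Of 8 measured genes typical of interferon gamma, 7 were below 0, with a median of -0.81, and 3 were at least 2-fold lower. Serping1, the complement inhibitor, read 322 and 829.7 (log2 ratio -1.37, 2.58-fold lower). Cxcl10, a chemokine for T cells, read 25.4 and 56.0 (2.20-fold lower). Ciita, the switch for class II presentation, read 22.7 and 50.1 (2.21-fold lower), though its second probe set gave 0.054. The exception above 0 was Irf8, which also stands in the list of factors. Genes of class I presentation differed little, with 9 of 12 below 0, 0 past 2-fold and a median of -0.23. Of these Tap2, a peptide transporter, was at least 1.53-fold lower, and Tapbp, which loads peptide, had the highest ratio, at 70.8 and 53.2 (0.41). With scaling to the spike-ins, the medians of the interferon-gamma type genes and of the 42 stayed below 0, at -0.52 and -0.41, whereas those of the class I genes (0.15), negative regulators (0.086), other induced genes (0.064), sensors (0.34) and signalling factors (0.37) were above 0 and below the median gene at 0.39.

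**Figure D4:**
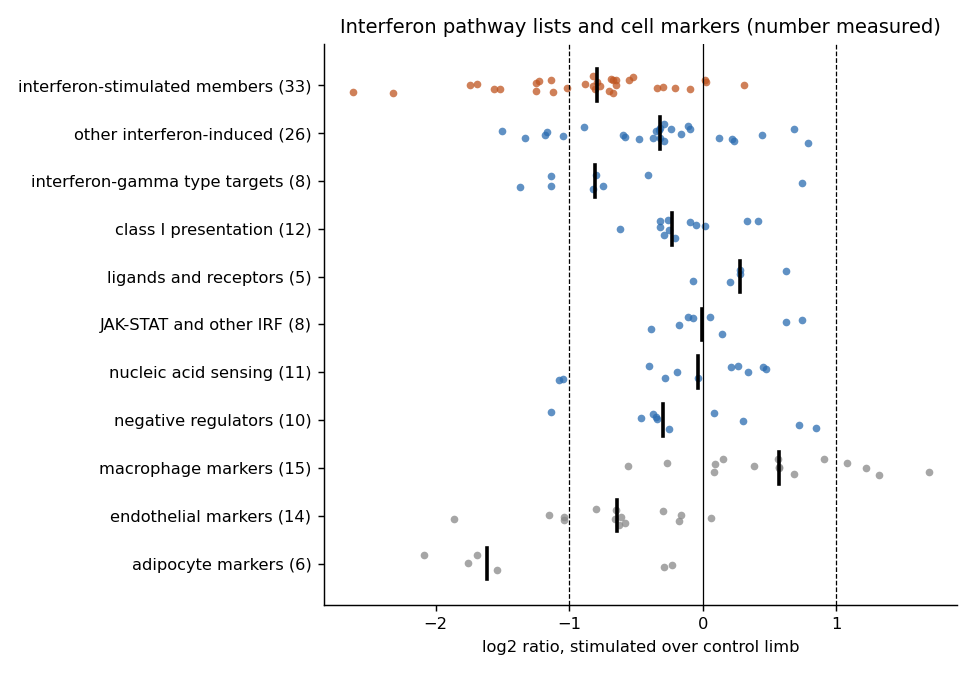
Log2 ratio of stimulated over control (horizontal axis) of each measured gene in the 42 antiviral genes (orange), the other interferon lists (blue) and cell type markers (grey), with a black bar at each median, dashed lines at a 2-fold difference and the number measured in brackets. The antiviral genes and the interferon-gamma type targets have medians of -0.79 and -0.81, receptors lie around 0.28, and the macrophage markers lie above 0 while endothelial and adipocyte markers lie below.

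Markers of other cell types differed between the limbs as well, with summed signals given as totals that are weighted to the brightest probe sets. Of 15 macrophage and monocyte markers, 13 were above 0 and 4 at least 2-fold higher in the stimulated limb (Tyrobp 3.22-fold, Cd53 2.49-fold, Ptprc 2.33-fold and Cd68 2.12-fold), and their summed signal was 8623 against 5571, or 3527 against 2122 without Lyz2, the brightest probe set. Of 14 measured endothelial markers, 13 were below 0 and 4 at least 2-fold lower (Plvap 3.62-fold, Flt1 at least 2.22-fold, Kdr 2.06-fold and Selp at least 2.06-fold), with a summed signal of 1265 against 2034. All 6 measured adipocyte markers were below 0 and 4 were at least 2-fold lower (Cfd 4.26-fold, Adipoq 3.38-fold, Plin1 at least 3.23-fold and Cidec at least 2.91-fold), with sums of 1325 and 3028, and Lep was below the floor on both arrays. The antiviral genes thus differed in the same direction as the endothelial and adipocyte markers and in the opposite direction to the macrophage markers. That direction was not particular to these lists. Medians were also below 0 for smooth muscle and pericyte (-0.40), fibroblast (-0.20), muscle fibre (-0.15) and lymphocyte markers (-0.059). Those of neutrophil (0.21) and plasmacytoid dendritic cell markers (0.039) were above 0. With scaling to the spike-ins, 10 endothelial markers were below 0 and 1 was at least 2-fold lower (median -0.26), 4 adipocyte markers were below 0 and all 4 at least 2-fold lower (median -1.37), and 13 macrophage markers were above 0 and 6 at least 2-fold higher (median 0.95), where the median gene was at 0.39.

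Of 7 smooth muscle and pericyte markers, 6 were below 0, with Acta2 2.28-fold lower and sums of 1012 and 1639, and with scaling to the spike-ins 5 were below 0 and 0 were 2-fold lower. Of 9 fibroblast markers, 6 were below 0 and 0 passed 2-fold, with a median of -0.20 and sums of 17953 and 21358. With scaling to the spike-ins all 9 were above 0, but their median of 0.18 lay below the median gene at 0.39. Of 12 lymphocyte markers with a probe set, 9 were below the floor on both arrays, including Cd3e, Cd3d and Cd79b. Of the 3 measured, Cd8a was at least 3.76-fold higher in the stimulated limb, while Cd4 (-0.59) and Cd3g (-0.059) were below 0. Their median was -0.059, and they summed to 135 and 98.2. Of 6 neutrophil markers with a probe set, 4 were below the floor on both arrays, among them S100a8 and Cxcr2, and the 2 measured summed to 70.9 and 60.0. Of 6 markers of plasmacytoid dendritic cells, strong producers of type I interferon, 3 had a single-gene probe set. They were Tcf4, Irf8 and Bst2, which is itself one of the 42. Tcf4 had a log2 ratio of 0.039, but -0.40 on a dimmer probe set, and Irf8, a factor of myeloid cells more widely, 0.74. The 3 summed to 545 and 649.8, but without Bst2 to 303 and 264, higher in the stimulated limb. The part of these cell markers in the lower antiviral signals was not tested.

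**Figure D5:**
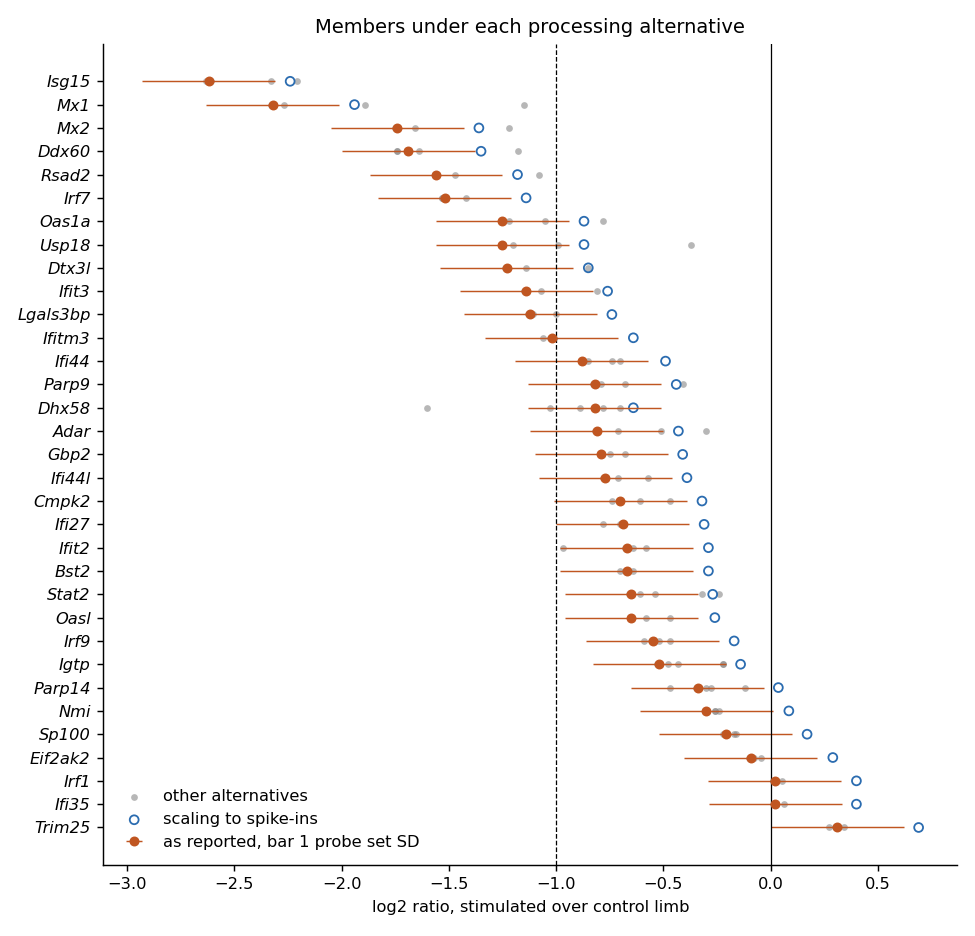
Log2 ratio of stimulated over control (horizontal axis) of the 33 measured antiviral genes as reported (orange, with a bar of 1 standard deviation of a single probe set, 0.31), with scaling to the spike-ins (open blue circles) and under the other processing alternatives (grey). The 12 genes past the dashed 2-fold line on the left stay below 0 in every alternative in which they were measured, while Parp14, Nmi, Sp100 and Eif2ak2 change sign under the spike-in scaling.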

How the data were processed

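Total RNA from each limb was labelled in 1 amplification cycle, per the labels' protocols. The deposited values were linear signal intensities, 1 per probe set and array, which the authors obtained with MAS5, per the submitters' processing notes. This algorithm combines the probes of a set into 1 signal and multiplies each array by 1 factor. For its version, scaling target and genome build, no value is given in the sources used here. Detection calls were not analysed here. With 1 array per group, precision is limited by the number of arrays.

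Of 31099 probe sets, 57 controls were left out. Of the 31042 others, 20826 listed 1 gene in the platform annotation, 436 listed several and 9780 are unnamed here, and the last 2 kinds were left out of gene counts. All 36 antiviral genes with a probe set matched RefSeq by gene identifier. The floor was the median signal of all non-control probe sets on both arrays, 16644 probe sets were measured, and where a gene had several measured probe sets, the one with the highest mean log2 signal stood for it. The log2 ratios were computed from these floored intensities, with no test. The calculation was tested on simulated data.

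The genes and lists were chosen with earlier results of these data known. Every antiviral gene is accounted for. Of each other list, genes past 2-fold were named, and otherwise up to 3 with the largest ratios. Ifnb1, Ifng, Ptpn6, Uba7, Isg20, Ifitm1, Apobec1, Lyz2, Cd4 and Cd3g, and markers below the floor, were chosen for naming once their values were known. Of the 9 alternatives tried, 8 were listed at the outset and 1 was added after seeing the data. Python 3.11.15, NumPy 2.4.6, pandas 2.3.3 and matplotlib 3.10.9 were used. Not every gene of the pathway lists is reported here.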

Additional observations from a re-analysis of the deposited data

How the results depend on the processing

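The 12 genes at least 2-fold lower stayed below 0 in each scaling, floor, pseudocount and probe set alternative in which they were measured. Their number moved with the scaling and the floor. Scaling to the spike-ins gave 6 antiviral genes and 6 of their probe sets at least 2-fold lower, a median of -0.41, 44 genes of the array lower and 525 higher, and 1 other interferon-induced gene lower with a list median of 0.064. That shift is the one of the median gene, to 0.39. Relative to it, an alternative chosen after seeing the data, 13 antiviral genes were lower, against 1.67% of all genes. A floor at the 75th percentile (76.5) left 19 antiviral genes measured, 5 of them and 5 probe sets lower. Of the whole array 49 genes were lower (0.842% of 5817) and 52 higher, and 3 other induced genes were lower. A floor at the 25th percentile gave 596 genes lower (4.67% of 12768) and 474 higher, with 13 of 35 antiviral genes and 16 of their probe sets lower. A pseudocount of 16 gave 3 other induced genes and 8 antiviral genes lower, against 1.16% of all genes. A fold of 1.5 gave 24 antiviral genes, 29 of their probe sets and 691 genes lower, and 656 higher. Quantile normalization and the median over probe sets each gave 12, against 1.30% and 1.25% of all genes. Leaving out probe sets with a suffix gave 10 of 30, against 1.39%. Of 247 values of single antiviral genes under the alternatives, 47 moved by more than the spread between probe sets and 0 that passed 2-fold changed sign. No paired analysis was possible because each group has 1 array, and for that reason no array could be left out. Signals near the floor limit Mx2, Adar, Ddx60 and Dhx58, and also Rsad2, Dtx3l, Ifit3 and Cmpk2. With the pseudocount, the log2 ratios of Dtx3l and Ifit3 were -0.85 and -0.81, short of 2-fold, and that of Rsad2 was -1.08.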

Other observations

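Some interferon genes were read by probe sets that list several genes, which were kept out of every count. The probe set shared by Igtpl1, Irgm2 and Igtp read 14.3 in the stimulated and 27.0 in the control limb, at least 1.37-fold lower. The one shared by Lgals9 and Lgals5 read 66.2 and 107, 1.62-fold lower, where the probe set of Lgals9 alone was 2.52-fold lower. The one shared by Setdb2, Phf11b and Phf11 was at least 1.45-fold lower, at 10.8 and 28.7. The probe set for the interferon alpha genes Ifna2 and Ifna5 was below the floor on both arrays, at 8.80 and 6.27.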
